A study of Homo sapiens with 18 samples.

Results

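HK-2 cells, which derive from human proximal tubule epithelium and were immortalised, received transforming growth factor beta 1 (TGF-beta1) and C-peptide alone and together, and the comparison asked whether C-peptide damped or enlarged the transcriptional response to TGF-beta1. The design was a 2 by 2 layout of 12 of the 18 arrays in the series, all at 48 h, with 3 flasks in each of 4 groups and 1 array per flask. The groups were untreated controls, TGF-beta1 at 2 ng/mL, C-peptide at 5 nM, and both agents at the same doses. Cells of passages 18 to 30 had spent 48 h in medium with 5 mM glucose and were starved of serum overnight before the agents were added, so all 4 groups share a low-glucose, serum-free background. The descriptions of TGF-beta1 replicates 2 and 3 give the growth factor another final number than the titles do, and both arrays were kept in the group of their titles. The quantity of interest was the interaction, the TGF-beta1 change with C-peptide (both agents minus C-peptide) minus the TGF-beta1 change without it (TGF-beta1 minus control), on a log2 scale.

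TGF-beta1 is the main profibrotic growth factor of the kidney. It signals through a pair of serine/threonine kinase receptors to SMAD transcription factors, which with partner factors such as AP-1 induce matrix genes and the pathway's own inhibitors, and in tubular epithelium it is known to lower cell adhesion and transport genes. C-peptide is the connecting fragment that is cut out of proinsulin. It is released with insulin, is missing in type 1 diabetes, and has been described to bind tubular cells and activate ERK, PI3 kinase and protein kinase C signalling.

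The promoters of 15 genes from a list of 20 standard TGF-beta readouts were found in the RefSeq promoter table (GRCh38.p14), as windows of 300 bases from 250 before to 50 after the annotated start. They were searched for TGACGTCA, the cAMP response element, which reads the same on both strands. Of all 35116 windows in that table, 649 (1.85%) hold it. Counted by gene and not by window, 3 of the 15 readouts do, and a part of the element in the interaction was not tested. The 3 genes are FN1 (fibronectin), the readout with the largest estimate of interaction below, and PMEPA1 and SKIL, both inhibitors in the TGF-beta pathway. The whole window is shown for FN1 and 60 bases around the element for the others, 5′ to 3′ on the gene's strand with the element in capitals. The element begins 183 bases before the start in FN1, 54 in SKIL and 4 in PMEPA1. FN1 lies on the minus strand at chr2:215436019-215436318, PMEPA1 on the minus strand at chr20:57709986-57710045 and SKIL on the plus strand at chr3:170357635-170357694.
FN1: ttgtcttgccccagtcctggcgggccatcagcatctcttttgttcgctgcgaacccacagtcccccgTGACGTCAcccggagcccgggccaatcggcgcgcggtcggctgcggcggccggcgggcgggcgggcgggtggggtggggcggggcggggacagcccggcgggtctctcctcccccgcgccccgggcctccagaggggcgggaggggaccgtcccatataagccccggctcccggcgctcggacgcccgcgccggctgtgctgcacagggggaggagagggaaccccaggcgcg
PMEPA1: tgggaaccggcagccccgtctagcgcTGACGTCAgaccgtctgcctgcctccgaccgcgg
SKIL: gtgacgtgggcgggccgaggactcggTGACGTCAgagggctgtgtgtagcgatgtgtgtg

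The 12 arrays had mean intensities of 217 to 344 units and detected 14912 to 15818 of 48803 probes each (detection p under 0.01). The median SD between replicates ranged from 0.09 to 0.11 on the log2 scale over the groups. The consecutive array numbers in the table headers list the controls and TGF-beta1 first and both C-peptide groups after them. Neither the labels nor the headers say whether these 2 sets were separate slides or batches, but the SD over probes that were never detected was 6.06 to 6.69 intensity units in the first set and 3.98 to 5.47 in the second. An effect of C-peptide and an effect of array set therefore cannot be told apart. Each TGF-beta1 change lies within a single set, and a log2 shift common to a set cancels from the interaction. A difference between the sets in the scale of changes would not cancel, and its part was not tested. Of 12 proximal tubule markers 5 were detected on all 12 arrays (GGT1, PAX8, CDH6, VCAM1, HAVCR1) and 7 on none, among them the defining LRP2, CUBN, AQP1 and HNF4A. The cell type is given as labelled, and a minority of these markers was detected.

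C-peptide did not detectably change the response of any single gene to TGF-beta1. Of 12335 genes tested, 0 passed for the interaction (0% called at limma adjusted p under 0.05, lowest adjusted p = 0.475), and 649 (5.26%) had an unadjusted p under 0.05, 281 with a positive and 368 with a negative interaction. TGF-beta1 itself changed a large share of the transcriptome. Averaged over both backgrounds, 7768 genes (63%) passed, of which 3846 rose and 3922 fell, and with array medians in place of quantiles for scaling the split was 2568 and 4412. Without C-peptide 6368 genes (51.6%) passed and with C-peptide 6098 (49.4%). The 5058 genes called in both make up 79.4% of the first list and 82.9% of the second, and 5055 of them changed in the same direction.

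The estimates were precise enough to bound large differences in response. The median SE of an interaction was 0.14 on the log2 scale, and its 95% interval reached a median of 0.30 (1.23-fold) to either side. For 6760 of the 7768 genes called for the average change (87.0%), the interval excluded a 1.5-fold or larger difference in response in either direction. Where the TGF-beta1 change was itself under 1.5-fold, its complete loss would also be under 1.5-fold, so this bound cannot exclude it. Of the 824 genes whose average change was 2-fold or more, 653 (79.2%) had an interval within 1.5-fold. The interaction estimate reached 1.5-fold in 47 of all genes and 2-fold in 1, CSNK1G2. In 874 genes at least 1 group had no array with a detected probe, and a change there is only a lower bound.

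As a single number, the TGF-beta1 response in the presence of C-peptide was 97.3% of that without it over the 7768 genes (jackknife SE 3.36 over arrays). Leaving out each array in turn gave 95.2% to 100.2%, and the value of 100.2%, on the other side of equality, came without C-peptide replicate 1. Among genes with a called average change, 4271 (55%) had an interaction opposite to that change, here called damped, and 3497 (45%) one in its direction, called enlarged. Both words describe the sign of an estimate, since no gene passed. Genes that rose split evenly, 1910 damped and 1936 enlarged, with a relative response of 98.8%. Genes that fell were damped in 2361 cases (60.2%) and enlarged in 1561, with a relative response of 95.9%. This contrast between rising and falling genes depends on the scaling: with array medians, 59.5% of the risers and 49.0% of the fallers were damped. For the 824 genes that changed by 2-fold or more, the response was 97.6% of that without C-peptide, the quartiles over genes were 90.0% and 104.8%, and 0 genes changed sign.

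**Figure D1:**
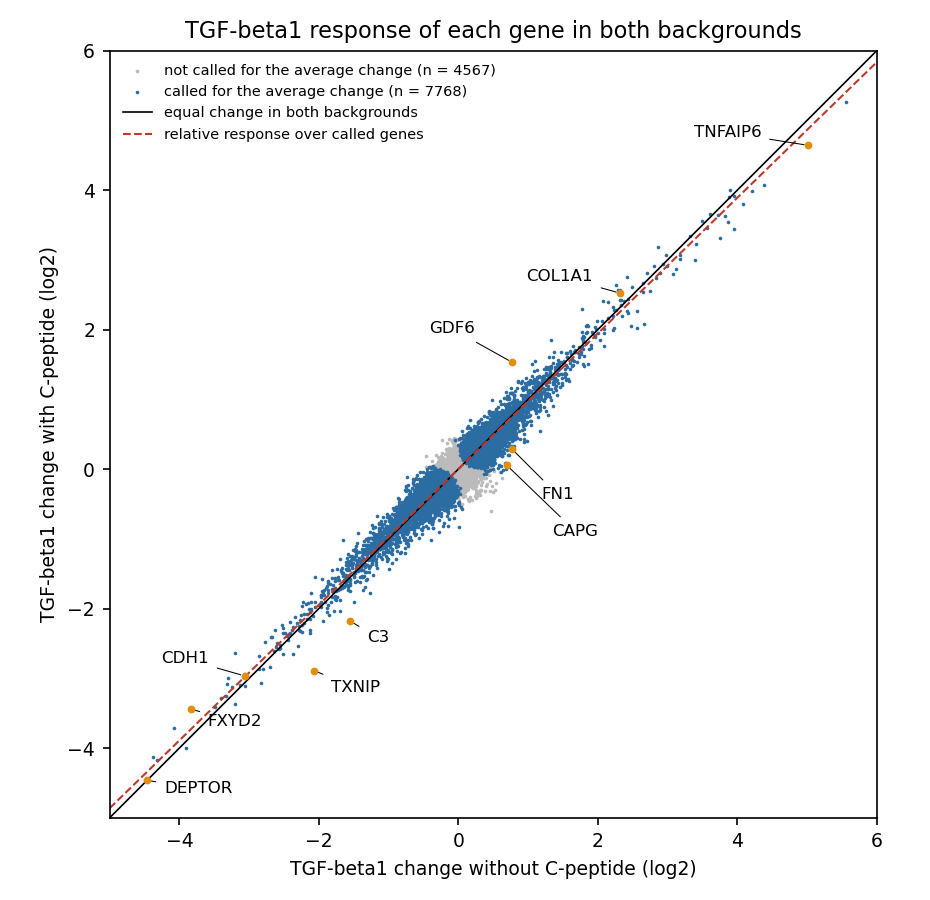
TGF-beta1 change of each of 12335 genes without C-peptide (x axis, log2) against that with C-peptide (y axis, log2), each from 3 against 3 arrays. Blue points passed for the average change, grey points did not, orange points are genes named in the text, the solid line is equality and the dashed line is the relative response of 97.3%, and the points follow both lines over the whole range.

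The direct readouts of TGF-beta signalling had 95% intervals of the interaction that included 0. SMAD7 is the inhibitory SMAD that closes the feedback loop. On the log2 scale its level was 6.52, 6.63 and 6.72 in controls, 8.43, 8.36 and 8.49 with TGF-beta1, 6.53, 6.51 and 6.36 with C-peptide, and 8.30, 8.35 and 8.42 with both. All arrays with TGF-beta1 lay above all arrays without it. The change was 1.80 (SE 0.09) without and 1.89 (SE 0.09) with C-peptide, and the interaction was 0.08 (SE 0.13), with a 95% interval of -0.18 to 0.35. TGFBI, a secreted matrix adhesion protein, rose by 2.15 and 2.17. PMEPA1 rose by 2.42 and 2.26, and its 3 probes had interactions of -0.15, -0.30 and -0.21. The SMAD corepressor SKIL rose by 1.19 without C-peptide, with an interaction of -0.10 (SE 0.18). CCN2, connective tissue growth factor, did not pass for the average change (-0.01 without and -0.09 with C-peptide).

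Among matrix readouts, COL1A1 and LOX had intervals that included 0, and the FN1 change with C-peptide was 37.4% of that without it. COL1A1, the main chain of type I collagen, measured 6.98, 7.08 and 6.96 in controls, 9.36, 9.17 and 9.45 with TGF-beta1, 6.84, 6.95 and 6.86 with C-peptide, and 9.34, 9.31 and 9.55 with both. The change was 2.32 (SE 0.09) without and 2.52 (SE 0.09) with C-peptide, and the interaction of 0.20 had an interval of -0.07 to 0.48. LOX, which crosslinks collagen, rose by 2.94 in each background (interaction 0.00, SE 0.14), and COL4A1 of the basement membrane rose by 0.89 and 0.86. The matricellular THBS1, an activator of latent TGF-beta, rose by 0.36 and 0.37.

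FN1 encodes fibronectin, the glycoprotein on which other matrix is assembled. Its level was 7.93, 7.87 and 8.17 in controls, 8.71, 8.81 and 8.76 with TGF-beta1, 8.01, 8.02 and 7.95 with C-peptide, and 8.26, 8.45 and 8.14 with both. The 3 arrays with both agents lay below all 3 with TGF-beta1 alone, and 1 of them lay under the highest control, while the C-peptide arrays lay within the range of the controls. The TGF-beta1 change was 0.77 (SE 0.10, limma adjusted p = 1.24e-06) without C-peptide and 0.29 (SE 0.10, adjusted p = 0.0172) with it. The interaction of -0.48 (SE 0.14, interval -0.77 to -0.20) had an unadjusted p of 0.00201 and an adjusted p of 0.894 over all genes, so it did not pass. Both other FN1 probes, which can overlap in target, gave interactions of -0.54 and -0.60. Leaving out each array in turn gave -0.57 to -0.41 for the first probe.

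The cytoskeletal and junctional readouts showed no call either. VIM, the intermediate filament vimentin, rose by 0.44 and 0.45 (interaction 0.01, SE 0.09). TAGLN, an actin-binding protein of contractile cells, rose by 1.55 without and 1.37 with C-peptide. ACTA2, smooth muscle actin, gave -0.36 without C-peptide and -0.23 with it. The neural cadherin CDH2 rose by 0.61 and 0.76 and the tight junction scaffold TJP1 by 0.35 and 0.51, while SNAI2, a repressor of epithelial genes, did not pass. CDH1, the epithelial cadherin, measured 8.63, 8.26 and 8.60 in controls, 5.70, 5.36 and 5.25 with TGF-beta1, 7.77, 8.41 and 8.50 with C-peptide, and 5.26, 5.38 and 5.15 with both. It fell by 3.06 without C-peptide, and with C-peptide, where it was not detected on any array with both agents, it was at least 7.06-fold lower. PAX8, a kidney lineage transcription factor, fell in both (-1.37 and -1.19), and its 3 probes differed in the sign of the interaction (0.17, 0.11 and -0.26). The tight junction protein OCLN was not tested. Of the 19 readouts tested 17 passed for the average change and 15 of these had an interval within 1.5-fold.

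**Figure D2:**
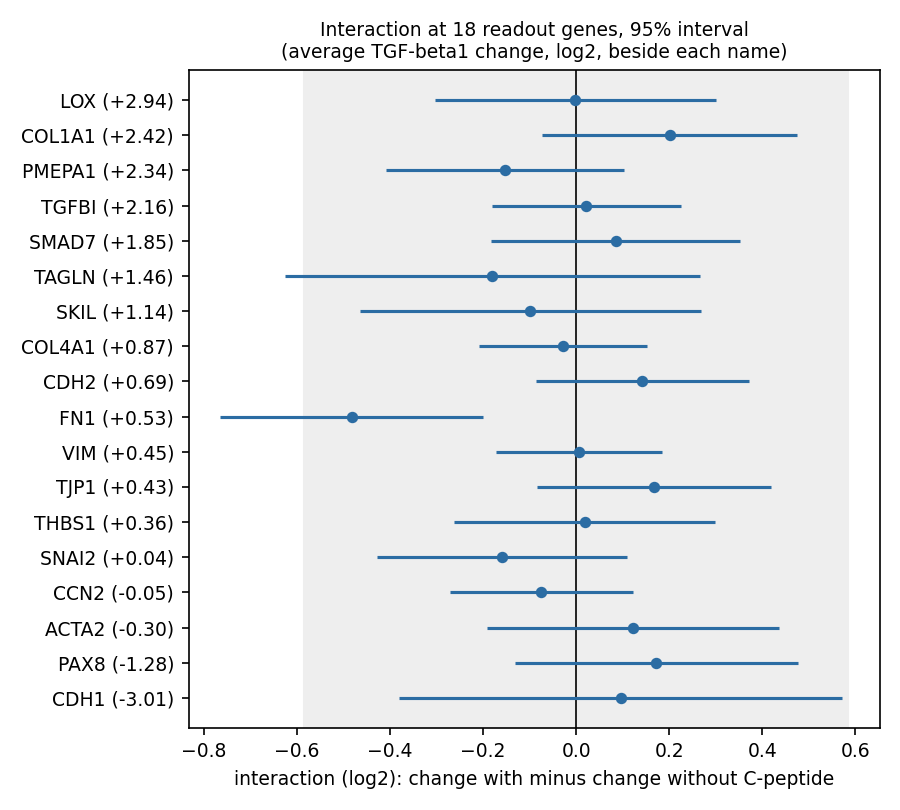
Interaction of TGF-beta1 and C-peptide at 18 of the 19 readout genes tested (x axis, log2; points are estimates and bars 95% intervals from limma, 3 arrays per group), ordered by the average TGF-beta1 change printed beside each name, with the zone of less than 1.5-fold shaded. The interval lies away from 0 for FN1 alone of the 18, before adjustment for the number of genes tested.

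**Figure D3:**
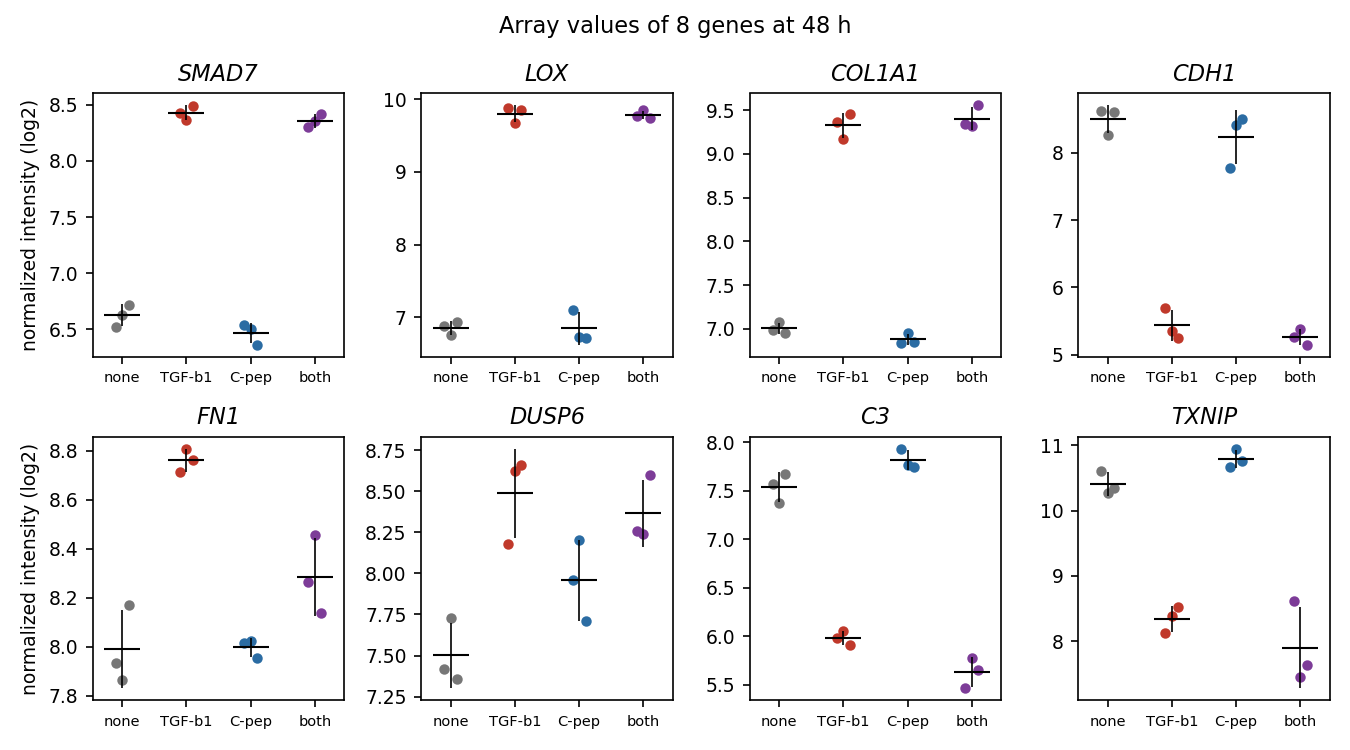
Normalized log2 intensity of 8 genes on each array (y axes differ and do not start at 0; points are arrays, horizontal bars means and vertical bars SD, n = 3), for controls (none), TGF-beta1, C-peptide and both. The top row shows readouts with near-equal changes in both backgrounds, and the bottom row shows FN1 and DUSP6, with smaller changes with C-peptide, and C3 and TXNIP, with larger ones.

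The genes with the largest TGF-beta1 changes went both ways, and their interactions were small beside them. DEPTOR, an inhibitor of mTOR, measured 10.12, 9.99 and 10.14 in controls, 5.66, 5.90 and 5.31 with TGF-beta1, 9.82, 10.16 and 10.20 with C-peptide, and 5.95, 5.39 and 5.45 with both. It fell by 4.46 in each background. TNFAIP6, a hyaluronan-binding protein, was between 5.23 and 5.49 in controls and 10.20 and 10.52 with TGF-beta1, and between 5.35 and 6.46 with C-peptide and 10.46 and 10.62 with both. The rise was 5.02 without and 4.64 with C-peptide, and the C-peptide arrays spanned the widest range of the groups. CRISPLD2, a secreted glycoprotein, fell in both backgrounds (-4.37 and -4.13). SCG5, a chaperone of prohormone convertase, rose by 4.38 and 4.07, and the forkhead factor FOXS1 rose by 3.88 and 3.90. Some low groups lay near the detection limit. DEPTOR was detected on 2 of 3 arrays in both groups with TGF-beta1, and TNFAIP6 on 2 of 3 in both groups without it. FOXS1 was detected on 1 of 3 controls and 2 of 3 C-peptide arrays. A difference in response is hard to measure in these genes.

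For the other genes of this size a group lay below detection, and the folds are bounds. AMTN, which encodes amelotin, was at least 23.9-fold higher without and at least 25.1-fold higher with C-peptide. CGB1, a chorionic gonadotropin subunit, was at least 12.7-fold and 14.2-fold higher. LCN2, a marker of tubular injury, was at least 10.5-fold and 13.5-fold lower. CGB5, whose probes may also bind CGB1, was at least 15.6-fold higher and MMP1, interstitial collagenase, at least 9.82-fold higher without C-peptide, and with it they rose by 3.99 and 4.01 on the log2 scale. SPOCK2, a proteoglycan, was at least 13.6-fold lower without C-peptide and gave -3.71 with it. None of the 12 genes with the largest average changes had an unadjusted p under 0.05 for the interaction at the probe used. A second, dimmer CGB5 probe had an interaction of the other sign, 0.41 (unadjusted p = 0.0448).

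Ranked by unadjusted p, among called responses with detection in all 4 groups, the 5 leading damped genes were DMD, CAPG, CAPZA1, FN1 and TUBB7P, all with values that did not pass (adjusted p of 0.894 for each). CAPG caps actin filaments. It measured 7.81, 8.07 and 8.04 in controls, 8.48, 8.99 and 8.53 with TGF-beta1, 8.57, 8.41 and 8.52 with C-peptide, and 8.34, 8.67 and 8.66 with both. The C-peptide arrays lay above all controls and overlapped those with both agents, and the change was 0.69 without and 0.06 with C-peptide (interaction -0.64, SE 0.17). CAPZA1, a subunit of another actin-capping protein, gave 0.40 and -0.03. Its C-peptide arrays lay between 9.70 and 9.77, above controls (8.49 to 8.63) and above TGF-beta1 alone (8.85 to 9.16). DMD, dystrophin, gave 0.62 and -0.04, but its other probe had an interaction of 0.47 in the opposite direction. TUBB7P, a beta-tubulin pseudogene whose probe may bind related tubulin transcripts, gave 0.95 and 0.38.

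At the enlarged end, with adjusted p of 0.764 to 0.894, stood MOB1B, C3, RPL7A, F11R and PAIP1. GDF6, with a lower unadjusted p of 0.000444 and the same adjusted p as the first of these, was left out of this rank because 3 of its groups were undetected, and it is described by level below. C3, the central complement component, measured 7.57, 7.37 and 7.67 in controls, 5.98, 6.06 and 5.92 with TGF-beta1, 7.93, 7.76 and 7.75 with C-peptide, and 5.47, 5.78 and 5.66 with both. The arrays with both agents lay below those with TGF-beta1 alone, and the C-peptide arrays above the controls. The change was -1.55 (SE 0.11) without and -2.18 (SE 0.11) with C-peptide, and the interaction was -0.63 (SE 0.15, unadjusted p = 0.000617, limma adjusted p = 0.764). MOB1B, an activator of Hippo pathway kinases, gave -0.15 and -0.82, with C-peptide arrays of 6.68 to 6.96 against 5.96 to 6.34 in controls. The ribosomal protein gene RPL7A gave -0.06 and -0.70, the translation factor PAIP1 0.05 and -0.57, and the tight junction adhesion molecule F11R -0.02 and -0.39. The other F11R probe had an interaction of 0.06. In DMD, CAPG, CAPZA1, TUBB7P, MOB1B, C3, RPL7A, F11R and PAIP1, the ranked genes other than FN1, the C-peptide arrays lay above all controls. The interaction was negative in each of them, and C-peptide minus control enters it with a minus sign. Ranking by the interaction therefore partly selects for high C-peptide arrays, and their position is no separate result. The difference from controls also lies between the 2 sets of array numbers, and a part of the array set was not tested.

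A set of 3 genes passed in both backgrounds with opposite signs, although the test of the interaction itself passed for none of them (adjusted p of 0.764 to 0.894). They were named after their values were seen. CSNK1G2, a casein kinase 1 isoform, gave 0.46 (SE 0.18) without and -0.60 (SE 0.18) with C-peptide, ITPKC, an inositol trisphosphate kinase, gave 0.38 and -0.31 (SE 0.12), and ACTR3, a subunit of the actin-nucleating Arp2/3 complex, gave 0.19 and -0.25 (SE 0.08). The lowest unadjusted p of all genes, 3.85e-05, belonged to the phosphatase CDC14B, with 0.17 without and -0.41 with C-peptide. Its other probes had interactions of -0.04 and 0.14. CDC14B was also singled out for its value, and its average change did not pass.

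By function, 29 lists held 734 tested genes, of which 577 passed for the average TGF-beta1 change, 315 (54.6%) of them damped and 262 enlarged. The shares to set beside each list are 63% of all genes called and 55% of the called genes damped. No member of any list passed for the interaction, and 47 members (6.40%) had an unadjusted p under 0.05 against 5.26% of all genes. The median signed interaction, which is negative for damping and positive for enlargement, ran from -0.11 to 0.06 over the lists, beside -0.02 over all called genes. It kept its sign under all 23 alternative settings in 12 lists (10 of them negative, 2 positive), and it turned with array-median scaling in 5.

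**Figure D4:**
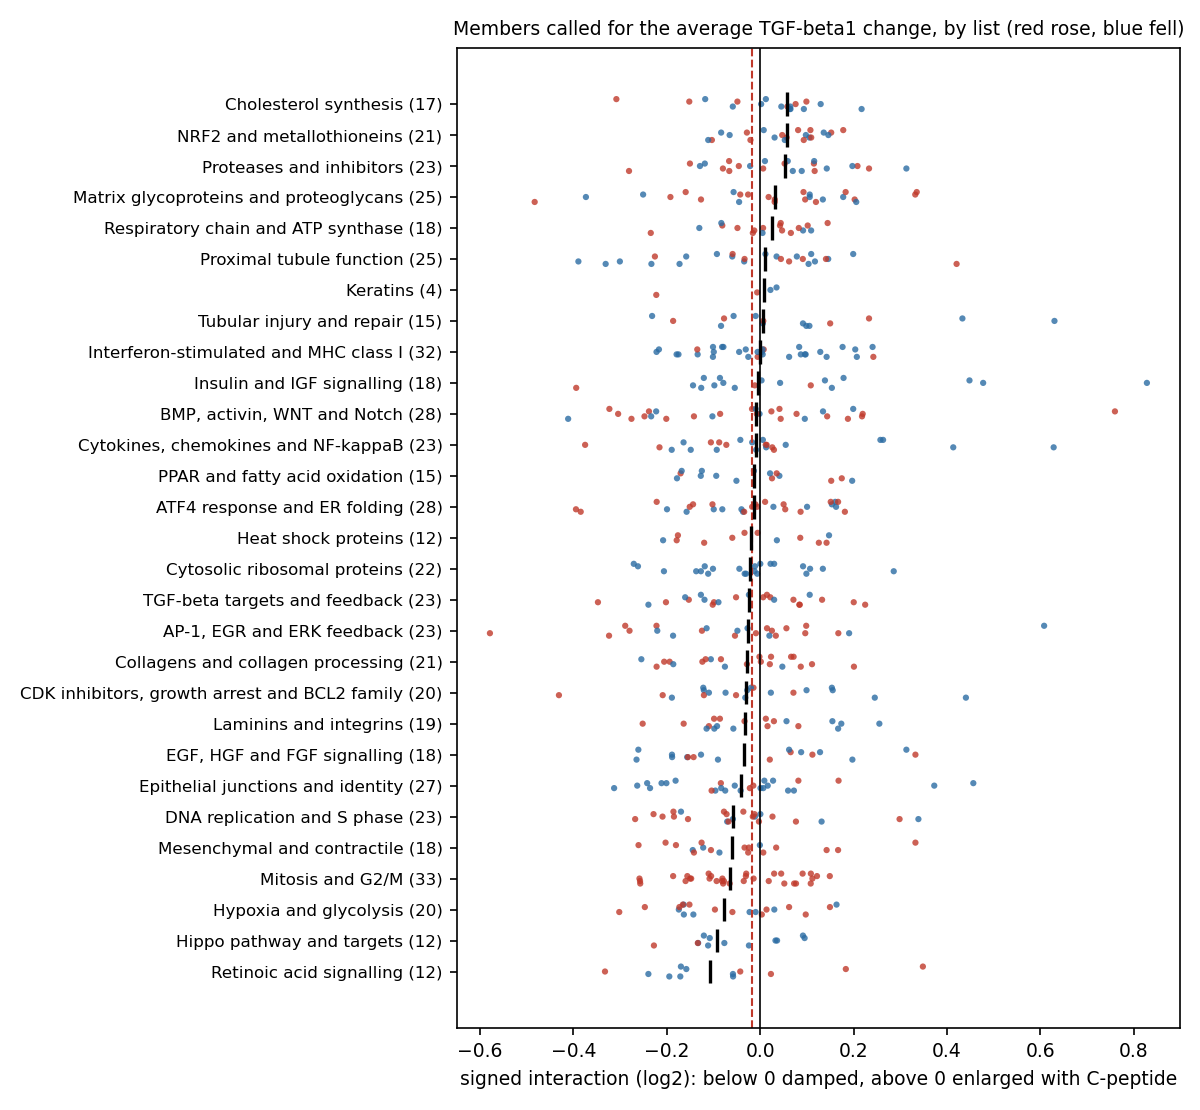
Signed interaction (x axis, log2; negative damped, positive enlarged) of every member called for the average TGF-beta1 change in 29 functional lists, with the number of such members in parentheses, red for genes that rose and blue for genes that fell, black bars for list medians and the dashed line for the median of all called genes, -0.02. List medians lie between -0.11 and 0.06.

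Among TGF-beta targets and feedback genes, 23 of 27 tested passed for the average change (15 rose, 8 fell), and these divided into 12 damped and 11 enlarged with a relative response of 98.8%. The most damped was BAMBI, a decoy receptor of the pathway, with 1.33 without and 0.99 with C-peptide, and the most enlarged was the transcription factor RUNX1, with 0.24 and 0.47. Of 33 tested genes of BMP, activin, WNT and Notch signalling 28 passed (19 rose, 9 fell), 16 damped and 12 enlarged. INHBE, an activin subunit, gave -1.70 and -1.29. GDF6, a BMP family ligand, was detected on no array of controls, TGF-beta1 or C-peptide and on all 3 with both agents, where it was at least 1.55-fold higher than with C-peptide, and between the undetected groups no fold can be given. Its measured means were 4.44 in controls, 5.22 with TGF-beta1, 4.57 with C-peptide and 6.10 with both, all close to background.

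Matrix lists had median signed interactions on both sides of 0. Collagens and their processing enzymes had 21 of 26 tested genes called (16 rose, 5 fell), 12 damped and 9 enlarged, with COL4A5 at -0.97 and -0.71. Matrix glycoproteins and proteoglycans had 25 of 27 called (16 rose, 9 fell), 10 damped and 15 enlarged, so that the FN1 estimate was not shared by most of its list. The small proteoglycan DCN, not detected with C-peptide alone, rose by 0.76 without C-peptide and was at least 1.58-fold higher with it. Laminins and integrins had 19 of 21 called, 10 damped and 9 enlarged, with ITGB6, the subunit of a TGF-beta-activating integrin, at 0.93 and 0.68, and the laminin receptor subunit ITGA6 at -0.13 and -0.38. Proteases and inhibitors had 23 of 30 called, 9 damped and 14 enlarged. MMP9, a gelatinase, rose by 3.08 and 2.80 (interaction -0.28, SE 0.13, unadjusted p = 0.0463), and SPINT1, an inhibitor of the HGF activator, gave -0.75 and -1.06.

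Mesenchymal and contractile genes had 18 of 24 called (14 rose, 4 fell), 13 damped and 5 enlarged, beside 55% damped among all called genes. The median signed interaction was -0.06, and the relative response of the list was 97.6%, beside 97.3% over all called genes. TPM4, a tropomyosin, rose by 0.56 and 0.30, and its 2 probes gave interactions of -0.26 and -0.27. The receptor PDGFRB, not detected without TGF-beta1, was at least 1.5-fold higher without and 1.55-fold higher with C-peptide.

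Epithelial and tubular genes mostly fell. Of 28 epithelial junction and identity genes 27 passed (6 rose, 21 fell), 16 damped and 11 enlarged, with a relative response of 95%. The placental cadherin CDH3 was at least 1.79-fold lower without and 1.5-fold lower with C-peptide, and MARVELD2, tricellulin of tight junctions, gave -0.27 and -0.73 (interaction -0.46, SE 0.15, unadjusted p = 0.00586). Of 26 proximal tubule function genes 25 passed (8 rose, 17 fell), 12 damped and 13 enlarged, with a relative response of 93.3%. That value weights large changes most, and the median signed interaction of the list was 0.01, a sign kept in 11 of 23 settings. FXYD2, which modulates the renal sodium pump, measured 12.22, 12.41 and 12.21 in controls, 8.60, 8.47 and 8.27 with TGF-beta1, 12.23, 12.40 and 12.57 with C-peptide, and 9.13, 8.89 and 8.86 with both. The arrays with both agents lay above all those with TGF-beta1 alone, and the change was -3.83 without and -3.44 with C-peptide (interaction 0.39, SE 0.14, unadjusted p = 0.0124). The other 3 FXYD2 probes had interactions of 0.15, 0.23 and 0.01. SLC13A3, a dicarboxylate transporter not detected with C-peptide alone, gave 0.02 without C-peptide and was at least 1.18-fold higher with it.

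Among 19 tubular injury and repair genes 15 passed, 6 damped and 9 enlarged. ANXA3, an annexin, gave -0.39 and -1.02, and its C-peptide arrays of 9.37, 9.14 and 8.95 lay above the controls at 8.92, 8.59 and 8.27. PROM1, a progenitor surface protein, was at least 1.24-fold lower without and 1.17-fold lower with C-peptide. Of 8 keratins tested 4 passed, beside 63% of all genes, and 2 were damped and 2 enlarged. KRT8 gave 0.38 and 0.15 and KRT80 -0.30 and -0.34, and a second KRT80 probe had an interaction of -0.41.

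Growth factor signalling lists, which include pathways that C-peptide has been described to act on, had no call. Of 31 AP-1, EGR and ERK feedback genes 23 passed (15 rose, 8 fell), 13 damped and 10 enlarged, and 4 of the 31 had an unadjusted p under 0.05 (12.9%, against 5.26% of all genes). Leaving out each array gave 2 to 5, the 2 being without replicate 1 of both agents. DUSP6 is the phosphatase that ERK signalling induces to switch ERK off. It measured 7.42, 7.73 and 7.36 in controls, 8.18, 8.62 and 8.66 with TGF-beta1, 7.96, 8.20 and 7.71 with C-peptide, and 8.26, 8.24 and 8.60 with both. Both groups with TGF-beta1 overlapped, and the highest C-peptide array lay above the lowest with TGF-beta1. The change was 0.99 without and 0.41 with C-peptide (interaction -0.58, SE 0.20, unadjusted p = 0.00954), and the second probe gave -0.24. The growth-associated factor KLF5 gave -0.21 and -0.82.

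Insulin and IGF signalling had 18 of 22 genes called (3 rose, 15 fell), 9 damped and 9 enlarged, and 3 (13.6%) had an unadjusted p under 0.05, or 2 to 4 when each array was left out. TXNIP, which restrains glucose uptake and binds thioredoxin, measured 10.61, 10.27 and 10.34 in controls, 8.12, 8.38 and 8.52 with TGF-beta1, 10.67, 10.94 and 10.77 with C-peptide, and 8.61, 7.46 and 7.64 with both. Replicate 1 of both agents lay above all arrays with TGF-beta1 alone and the other 2 below them. The change was -2.06 without and -2.89 with C-peptide (interaction -0.83, SE 0.27, unadjusted p = 0.00676, adjusted p = 0.894), and without that replicate the interaction was -1.18 and passed (limma adjusted p = 0.0144). The kinase AKT2 gave 0.46 and 0.07. EGF, HGF and FGF signalling had 18 of 25 called, 9 damped and 9 enlarged, with the receptor EGFR at -0.38 and -0.12, whose second probe pointed the other way (interaction -0.39).

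Hippo and retinoic acid signalling had the most negative medians. Of 19 Hippo genes 12 passed (2 rose, 10 fell), 8 damped and 4 enlarged, with a median signed interaction of -0.09 and a relative response of 93.3%. WWTR1, the coactivator TAZ, rose by 0.65 and 0.42, and the kinase STK3 gave -0.28 and -0.37. Of 16 retinoic acid genes 12 passed (5 rose, 7 fell), 9 damped and 3 enlarged, with a median of -0.11 and a relative response of 94.4%. ALDH1A2, which makes retinoic acid, was at least 1.26-fold higher without C-peptide and gave 0.12 with it, and the nuclear receptor NR2F1 rose by 0.70 and 1.05 (interaction 0.35, SE 0.13, unadjusted p = 0.0168). Both medians stayed negative under all 23 settings, down to -0.02 and -0.03 at the least.

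Among proliferation genes, the mitotic list rose as a whole and the replication list went both ways. Over all genes tested 63% passed for the average change and 31.2% passed and rose. Damped shares were 55% of all called genes and 49.7% of those that rose. All 33 tested genes of mitosis and G2/M passed and rose, 21 damped and 12 enlarged, with a relative response of 95.9% and 32 of 33 intervals within 1.5-fold. TPX2, a spindle assembly factor, rose by 1.23 and 0.98, and the kinetochore motor CENPE by 1.33 and 1.48, with a second CENPE probe at an interaction of -0.18. DNA replication and S phase had 23 of 31 called (16 rose, 7 fell), 17 damped and 6 enlarged, and a relative response of 90.1%. The polymerase subunit POLD1 gave -0.18 and -0.52. Of 28 CDK inhibitor, growth arrest and BCL2 family genes 20 passed, 13 damped and 7 enlarged, with the pro-apoptotic BAK1 at 0.63 and 0.20.

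Inflammatory lists were balanced. Cytokines, chemokines and NF-kappaB genes had 23 of 28 called (9 rose, 14 fell), 12 damped and 11 enlarged, with TNFAIP6 and C3, described above, at the ends. Interferon-stimulated and MHC class I genes had 32 of 35 called (4 rose, 28 fell), 16 damped and 16 enlarged, and a relative response of 99.5%. MX1, an antiviral GTPase, was at least 1.25-fold lower without C-peptide and gave -0.36 with it, and the ubiquitin-like ISG15 gave 0.32 and 0.56.

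Metabolic lists lay on both sides of equality. Cholesterol synthesis had 17 of 25 called, 5 damped and 12 enlarged, with the highest median of 0.06; that median turned negative in 2 of 23 settings. STARD4, a sterol carrier, rose by 1.12 and 0.81, and DHCR7, the last enzyme of cholesterol synthesis, gave -0.11 and -0.33. PPAR and fatty acid oxidation had 15 of 20 called, 8 damped and 7 enlarged, with the carnitine transferase CPT2 at -0.38 and -0.20 and the acyl-CoA synthetase ACSL1 at -1.27 and -1.47. Hypoxia and glycolysis had 20 of 29 called, 13 damped and 7 enlarged, with a relative response of 91.9%. Pyruvate kinase PKM gave 0.37 and 0.07, and its 3 probes had interactions of -0.30, -0.59 and -0.52, while HIF1A gave -0.45 and -0.62. The respiratory chain and ATP synthase had 18 of 33 called, 7 damped and 11 enlarged, with UQCRC1 of complex III at 0.46 and 0.23 and SDHB of complex II at 0.38 and 0.53.

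Stress lists had no call. ATF4 response and ER folding genes had 28 of 34 called, 16 damped and 12 enlarged. CALR, the calcium-binding chaperone calreticulin, measured 9.82, 9.96 and 9.89 in controls, 10.43, 10.48 and 10.62 with TGF-beta1, 10.42, 10.28 and 10.05 with C-peptide, and 10.46, 10.48 and 10.48 with both. Both groups with TGF-beta1 overlapped and the C-peptide arrays lay above the controls. The change was 0.62 without and 0.23 with C-peptide (interaction -0.39, SE 0.12, unadjusted p = 0.00412). The amino acid transporter SLC7A1 gave 0.26 and 0.44. NRF2 targets and metallothioneins had 21 of 26 called, 6 damped and 15 enlarged, all 21 with an interval within 1.5-fold. Their relative response of 109.6% was the highest of the lists, with TXN, thioredoxin, at 0.35 and 0.52 and MT1F at -0.78 and -0.67. A second TXN probe gave 0.39 and 0.40, an interaction of 0.01. Heat shock proteins had 12 of 18 called, 7 damped and 5 enlarged, with CRYAB at -0.67 and -0.46 and HSPB8 at -0.22 and -0.37.

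Of 36 tested cytosolic ribosomal protein genes 22 passed for the average change and all 22 fell, 14 damped and 8 enlarged, with a relative response of 85.0%, the lowest of the lists. The median signed interaction of the list was -0.021, close to the -0.017 over all called genes. Of all called genes that fell, 60.2% were damped. An unadjusted p under 0.05 for the interaction was found in 10 of the 36 (27.8%, against 5.26% of all genes), 6 with a positive and 4 with a negative interaction, and in 6 to 9 when each array was left out. RPL7A, described above, is a ribosomal protein gene that the list does not hold. The largest of the 10 estimates in size was RPL32 at 0.41 (SE 0.12), with -0.26 without and 0.15 with C-peptide and no call for the average. RPL37 gave -0.92 and -0.65, RPS13 gave -0.27 and -0.01, and RPS19 gave 0.12 and -0.14. RPS24 gave -0.05 and -0.34, but a second probe rose on average, with an interaction of 0.09. Ribosomal protein genes have many near-identical pseudogenes, so that the level of a single member is uncertain. The SEs of the 10 genes were 0.08 to 0.13, beside a median of 0.14 over all genes.

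Of the markers of other cell types most were detected on no array. Distal nephron and collecting duct markers had 2 of 12 detected (SCNN1A and ATP6V1B1), both of which fell with TGF-beta1, and UMOD, SLC12A1, SLC12A3 and AQP2 were at 0 arrays. The summed unnormalized intensity of that list was 304 to 377 in controls, 19.6 to 32.2 with TGF-beta1, 184 to 291 with C-peptide and 14.1 to 30.9 with both, and its part in the TGF-beta1 changes was not tested. Endothelial markers had 2 of 9 detected (PECAM1 and EGFL7). Leukocyte markers had 2 of 10 detected, CD68 on all 12 arrays and CSF1R on 6. PTPRC, CD14 and CD3E were among the 8 leukocyte markers at 0 arrays. Fibroblast markers had 5 of 9 detected, with COL3A1, THY1, FAP and POSTN at 0. PDGFRA, LUM and TCF21 were detected on all 12 arrays, DCN on 7 and PDGFRB on 6. The summed unnormalized intensity of the fibroblast list was 2338 to 2554 in controls, 2264 to 2692 with TGF-beta1, 1867 to 2362 with C-peptide and 1709 to 2388 with both, and that of the proximal tubule list was 6632 to 7057, 5554 to 6107, 4905 to 5214 and 3583 to 4833. Both sums include the lower overall intensity of the C-peptide arrays, and their part in the interaction was not tested. In an array of whole cultures, fewer cells of a type and less RNA per cell cannot be told apart.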

How the data were processed

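Total RNA from 12 flasks of HK-2 cells was hybridised to Illumina HumanWG-6 bead arrays. The deposited intensity values are mean bead intensities exported from GenomeStudio 1.1.1 without normalization, per the file headers, and its deposited detection column is a fraction that equals 1 minus the detection p. A second table of normalized intensity by the authors served as an alternative; how it was normalized is not given in the sources used here. With limma 3.58.1 in R 4.3.3, neqc (offset 16, detection p) was applied to all 18 arrays. Probes with a detection p under 0.01 on at least 3 of the 12 arrays entered, and each gene was represented by its brightest probe on average. Of 48803 probe names, 22068 were current symbols, 5144 older symbols and 1829 gene IDs in a RefSeq gene table; 19762 were left as they stood. Linear models with 4 group means were fitted (lmFit, eBayes with an intensity trend), with Benjamini-Hochberg adjustment over all genes; all p-values are two-sided and measure the spread between flasks. With equal groups the average TGF-beta1 change and the interaction are uncorrelated estimates, so choosing genes by the first does not choose for damping. The relative response is (1 + b/2)/(1 - b/2), where b is the slope of interaction on average change through 0. Bounds use the lowest signal among probes detected on an array.

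The genes named were the 5 lowest p in each direction among called responses with a current symbol and detection in every group, the 12 largest average changes, the readout list and the extremes of each list; a few of these are not reported here. The design, gene lists and rules were chosen with earlier results of these data known. Replicate numbers showed no clear pairing of the flasks, with 5 of 18 same-number correlations over 0.1, and the main fit did not pair them. The scripts were tested on simulated data. Alternatives were scaling, offset, filter, probe choice, the arrays fitted, array weights, a replicate block and leaving out each array. The number of arrays limits the precision.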

Additional observations from a re-analysis of the deposited data

How the results depend on the processing

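The count of 0 genes called for the interaction held under all alternatives tried except 2: with array weights 1 gene passed (CDC14B, adjusted p = 0.0388), and leaving out each array gave 0 to 1, the 1 being TXNIP without replicate 1 of both agents. Counts at an unadjusted p under 0.05 ran from 380 with all 18 arrays in the fit to 2373 of 38018 genes with no detection filter; they were 1462 with array weights, 1065 without TGF-beta1 replicate 1 and 1064 without C-peptide replicate 3. Counts for the average change and for each background stayed within 1.5 times (6767 to 8315 for the average), the relative response lay between 95.2% and 100.2%, and the damped share between 50.2% and 58.4%. With the replicate block, 0 genes passed for the interaction and 564 had an unadjusted p under 0.05. There 7614 genes passed for the average and the relative response was 97.3%. Replicate numbers had a median same-number correlation of -0.11, and 1 of 12 arrays correlated best with its own number. No pairing of flasks by number was visible, but with 3 arrays per group such correlations cannot exclude it. Median scaling moved the median average change of all genes to -0.08, the relative response to 91.8% for risers and 99.9% for fallers, and the median interaction to -0.03 from 0.01. Of 2139 re-estimates of 94 named genes, 2 became called (those above), 76 changed sign without a call and 0 reversed a call. The set of array numbers as a random block was not run, since each group lies in a single set. Signal over background limits the 874 genes with an undetected group.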
